A study of Schizosaccharomyces pombe with 4 samples.

Results

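The cytosolic ribosomal protein genes of fission yeast were examined in 2 *sim3* mutants. All array names made of rpl, rps or rpp followed by a digit were taken, which gave 131 of 4871 gene names on the array. By the prefix of the name, 71 of these were assigned to the large subunit, 53 to the small subunit and 7 to the P stalk of the large subunit. The names *rpl20-1* and *rpl20-1-x2* are 2 probes of 1 gene, so the 131 names stand for at most 130 genes. Another 5 names that fit the rule (*rpl1-1*, *rpl30-2*, *rpl34*, *rpl37-2* and *rpl38-1*) were marked on the array as missing products and were left out. A current gene symbol was found for 120 of the 131 names in RefSeq's gene table, and the array's own names are used throughout.

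The mutant strains carry a missense allele of *sim3*, either *sim3-205* or *sim3-143*, and each was compared with wild-type cells by RNA from logarithmically growing *Schizosaccharomyces pombe* cultures. Sim3 is a NASP-related histone chaperone that binds CENP-A and is needed for its deposition at centromeres. Each allele was hybridized to 2 spotted ORF arrays with the wild-type RNA in the other dye. The mutant RNA was in Cy3 in replicate 1 and in Cy5 in replicate 2 of both alleles. The *sim3-205* replicate 2 array is recorded under another platform than the remaining arrays. In that allele platform record, dye and replicate therefore cannot be told apart. With each probe spotted in duplicate, a gene had 4 data points in an allele. Where a pair of values is given for the arrays of an allele, replicate 1 comes before replicate 2. In cultures, fewer cells of a kind and less RNA per cell cannot be told apart. Neither the labels nor the methods say whether the 2 arrays of an allele came from separate cultures or whether the alleles shared their wild-type RNA, so the p-values below measure only the spread between arrays, which may be technical. Each allele is a single strain in which other differences from the wild-type were not measured here.

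Ribosomal proteins and ribosomal RNA form the 2 subunits of the ribosome, which decode mRNA and join amino acids. Fission yeast carries most of these genes in more than 1 copy, and the copies encode identical or nearly identical proteins. The P0 protein anchors P1 and P2 proteins in a flexible stalk on the large subunit, where translation factors bind. Ribosomal protein transcripts are among the most abundant mRNAs of a growing yeast cell and, in both budding and fission yeast, they are known to move together when growth slows or stress sets in.

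Ribosomal protein probes were among the brightest on every array. In the wild-type channel their median lay at percentile 98.4 and 98.0 of all genes on the *sim3-205* arrays, and at percentile 98.1 and 97.8 on the *sim3-143* arrays. Of the 131 names, 117 averaged at or above the 90th percentile. Signal near the scanner's ceiling (at least 65000 of the intensity units of the files) was reached in a spot by 14 and 36 members on the *sim3-205* arrays, and by 49 and 41 members on the *sim3-143* arrays. Where both dyes reached it on both spots, no ratio was measured. This was so for 1 and 3 members on the *sim3-205* arrays and for 21 and 8 members on the *sim3-143* arrays. Their values then collapsed to 1 number for each array, a log2 ratio of 0.14 for the 21 and 0.33 for the 8, which is set by the normalization curve.

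On *sim3-205* replicate 1, 10 members gave readings that are treated here as doubtful. In 3 of 32 grids of that array (21, 25 and 29) the dyes were unrelated, with Spearman correlations of 0.117, -0.07 and -0.12 between dyes, against 0.711 to 0.974 in the remaining grids of the 4 arrays. There the Cy3 intensities followed those of *sim3-143* replicate 1 (Spearman 0.825, 0.906 and 0.95) and the Cy5 intensities, from the wild-type, did not (0.157, -0.06 and -0.15). The 9 members in these grids are *rpl6*, *rpl18-1*, *rpl20-1*, *rpl34-2*, *rpl37-1*, *rps3*, *rps4-1*, *rps25-1* and *rps30-1*. The remaining one is *rps15-2*, whose Cy3 spots read 133 and 122 over a recorded background of 0, against 26346 and 22505 for the mutant on *sim3-205* replicate 2. Its log2 ratio, mutant over wild-type, came to -7.39 and -0.02 on the *sim3-205* arrays. The 5 highest means of *sim3-205* with all readings, those of *rpl20-1*, *rps4-1*, *rpl18-1*, *rpl37-1* and *rps30-1*, all rest on such readings, which lay between 3.51 and 5.63 on replicate 1. On replicate 2 the same genes lay between -0.13 and 0.80. The *rpl20-1* gene has a probe inside and a probe outside these grids. On *sim3-205* replicate 1, *rpl20-1* read 5.56 and *rpl20-1-x2*, which lies in another grid, read -0.53, whereas on replicate 2 they read 0.03 and -0.27. Results on *sim3-205* are therefore given with these 10 readings and without them.

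The median log2 ratio of the ribosomal protein genes lay between -0.18 and 0.07 in the 2 mutants, depending on the normalization. All values that follow are log2 ratios of mutant over wild-type unless another scale is named. The median over members was -0.12 and 0.04 on the *sim3-205* arrays, and -0.01 and 0.08 on the *sim3-143* arrays. The median over all genes was 0.02 and 0.00 on the *sim3-205* arrays, and 0.00 and -0.00 on the *sim3-143* arrays. The allele medians of the members were -0.01 in *sim3-205* (131 names) and 0.03 in *sim3-143* (130 names), and the 2 arrays of each allele fell on opposite sides of 0. Without the 10 readings the *sim3-205* median was -0.03 over 121 names. The loess curve is fitted through the members too, and with the members kept out of it their medians were -0.07 in *sim3-205* and 0.07 in *sim3-143*. With median centring in place of loess they were -0.18 in *sim3-205* and -0.06 in *sim3-143*. The sign of the *sim3-143* median therefore changes with the normalization.

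**Figure D1:**
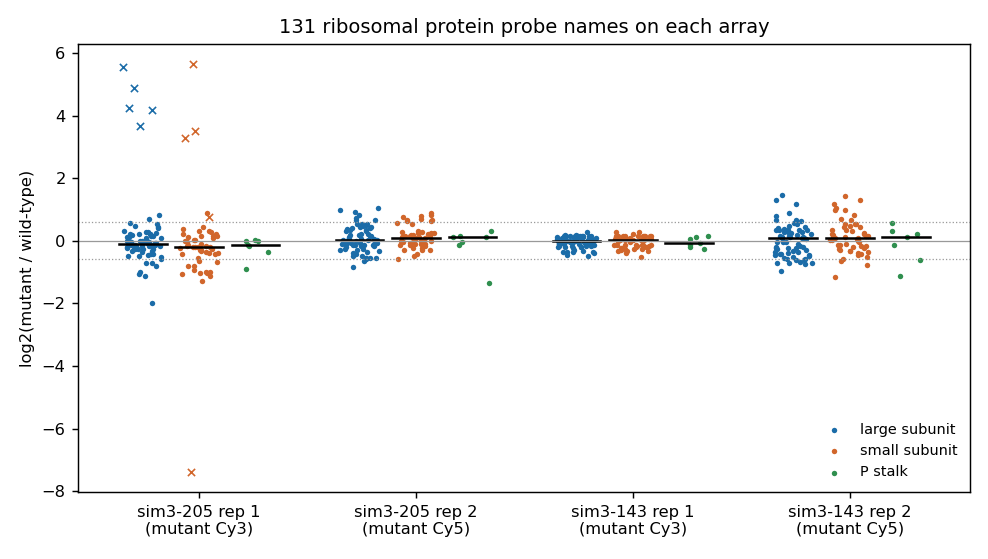
Log2 ratio of mutant over wild-type (vertical axis) for the 131 ribosomal protein names on each of the 4 arrays (horizontal axis), coloured by subunit, with black bars at the medians of the kept readings, dotted lines at 1.5-fold and crosses for the 10 readings on sim3-205 replicate 1 treated as doubtful. The medians lie near 0 on all 4 arrays, while the spread is narrowest on sim3-143 replicate 1.

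The spread of the members differed more between arrays than their centre. Their standard deviation was 0.46 (without the 10 readings) and 0.40 on the *sim3-205* arrays, and 0.18 and 0.53 on the *sim3-143* arrays. For all other genes it was 0.40 and 0.38 on the *sim3-205* arrays, and 0.31 and 0.50 on the *sim3-143* arrays. On *sim3-143* replicate 1, 0 of 131 members had a log2 ratio past 1.5-fold (0.585 on the log2 scale), whereas 31 of 130 were past it on replicate 2 of the same allele, 17 higher and 14 lower. The 21 members at the ceiling in both dyes could not be past it on replicate 1. Among members with no near-saturated spot, 0 of 82 were past it on replicate 1, with a standard deviation of 0.19, and 26 of 89 on replicate 2 (15 higher, 11 lower), with 0.57. Among all genes the shares past 1.5-fold on these arrays were 5.30% and 20.4%.

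The large and small subunits did not separate by more than the arrays did. The large subunit median was -0.07 and 0.01 on the *sim3-205* arrays, and -0.02 and 0.08 on the *sim3-143* arrays. The small subunit median was -0.19 and 0.09 on the *sim3-205* arrays, and 0.02 and 0.10 on the *sim3-143* arrays. The difference of large minus small was thus 0.12 and -0.08 on the *sim3-205* arrays, with opposite signs, and -0.04 and -0.02 on the *sim3-143* arrays. Over the allele means it was 0.01 in *sim3-205* and -0.07 in *sim3-143*. Without the near-saturated spots the difference in *sim3-143* was -0.14.

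The study counted genes with at least 3 of 4 data points past 2-fold or, less stringently, past 1.5-fold. The 1.5-fold form is the cutoff meant below. At least 3 points had to be past it in the same direction, and all 4 had to be present. No p-value comes with it. In *sim3-205*, 5 members of 131 were past it as higher and 3 as lower, against a background of 2.59% and 0.618% of all genes (3.21% in either direction). In *sim3-143*, 0 of 130 members were past it in either direction, where 2.11% of all genes were higher and 1.38% lower (3.49% in either direction). Of the 5 higher members of *sim3-205*, *rpl34-2*, *rps25-1* and *rps30-1* lie in the grids of unrelated dyes. Without the 10 readings, 2 higher members (*rpl38-2* and *rpl7-3*) and 3 lower members (*rpl4-2*, *rpl8-3* and *rpp0*) of 121 stayed past the cutoff, against 1.7% and 0.68% of all genes (2.38% in either direction). At 2-fold, with all readings, 0 members were counted in either allele, where 0.638% of all genes were in *sim3-205* and 0.537% in *sim3-143*. The study's own lists, from its own normalization, differ from these counts. As placed, the deposited ratios of *sim3-205* replicate 1 correlated with the ratios here at r = 0.05 and 0.04 for its 2 spots. Moved back to the spots they were read from, these deposited ratios correlated at 0.52 and 0.65. A name in the study's lists may therefore stand for other spots than here. The lists hold *rpp0* as lower past 2-fold in *sim3-205*. At 1.5-fold in that allele they also hold *rpl39* and *rps27* as higher and *rps10-1* as lower. *rpl39*, *rps27* and *rps10-1* were not past the cutoff here. The source of the difference was not tested.

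No member passed the test across arrays in either mutant. With limma, 0 of 130 members were called in *sim3-205* or in *sim3-143* at an adjusted p below 0.05, and the background was 0% of the 4834 genes tested in each. The smallest adjusted p of a member was 0.524 in *sim3-205* and 0.534 in *sim3-143*. At an unadjusted p below 0.05, limma gave 14 members in *sim3-205* (7 higher, 7 lower, 10.8%) beside 8.83% of all genes, and 4 members in *sim3-143* (all lower, 3.08%) beside 8.77% of all genes. Without the 10 readings these counts were 12 of 120 members in *sim3-205* (3 higher, 9 lower) beside 8.84% of all genes, and 4 of 120 in *sim3-143* beside 11.6%. limma then called 0.205% of all genes in *sim3-143* and 0 of 120 members.

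Of the stalk genes, *rpp0* had the lowest mean in both alleles. It encodes P0, the anchor of the stalk. Its log2 ratio was -0.35 and -1.33 on the *sim3-205* arrays, and -0.27 and -1.12 on the *sim3-143* arrays. Both alleles overlapped, and in both the array with the mutant in Cy5 gave the lower value. On *sim3-205* replicate 2 the mutant spots read 11743 and 11324 and the wild-type spots 27220 and 26155, all far from the ceiling. The mean was -0.84 ± 0.69 in *sim3-205* (SD, n = 2), which is 1.80-fold lower, and limma's adjusted p was 0.561. In *sim3-143* it was -0.69 ± 0.60 (SD, n = 2) with an adjusted p of 0.578 from limma. The 2 spots of *rpp0* on *sim3-205* replicate 1 differed, with -0.05 and -0.66, and 3 of the 4 data points of *sim3-205* were past the cutoff.

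The P1 and P2 genes, whose acidic proteins form the arm of the stalk, stayed within the cutoff in both alleles. The 3 P1 genes averaged 0.07, -0.05 and -0.03 in *sim3-205* for *rpp1-1*, *rpp1-2* and *rpp1-3*, and 0.07, -0.25 and 0.05 in *sim3-143*. Of the P2 genes, *rpp2-1* read -0.89 and 0.12 on the *sim3-205* arrays, and 0.07 and 0.12 on the *sim3-143* arrays. Its low value is thus on 1 array only, and in 1 dye it was at the ceiling on *sim3-205* replicate 2 and on *sim3-143* replicate 1. *rpp2-2* averaged 0.15 in *sim3-205* and 0.36 in *sim3-143*, and both dyes of *rpp2-2* were near the ceiling on *sim3-143* replicate 1. *rpp2-3* had the closest replicates of the stalk in *sim3-143*, with -0.13 and -0.04 on the *sim3-205* arrays, and -0.15 and -0.15 on the *sim3-143* arrays. limma called 0 of the 7 stalk genes, and at an unadjusted p below 0.05 only *rpp0* in *sim3-205* was counted.

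Among names of the large subunit, *rpl38-2* and *rpl7-3* were past the cutoff as higher in *sim3-205*. *rpl7-3* had no match in the current gene table, so its place in the subunit rests on the array name. Whether it encodes a ribosomal protein or a ribosomal protein-like assembly factor could not be checked. *rpl38-2*, one of the smallest proteins of the subunit, read 0.52 and 1.03 on the *sim3-205* arrays, and -0.10 and 1.29 on the *sim3-143* arrays. The *sim3-143* arrays span the values of both *sim3-205* arrays. A mutant spot of *rpl38-2* was at the ceiling on *sim3-205* replicate 2, so that its 1.03 is a lower bound. Its mean was 0.78 ± 0.36 in *sim3-205* (SD, n = 2; limma adjusted p = 0.571) and 0.60 ± 0.98 in *sim3-143* (SD, n = 2; limma adjusted p = 0.599). *rpl7-3* read 0.81 and 0.51 on the *sim3-205* arrays, and -0.36 and -0.05 on the *sim3-143* arrays. Both *sim3-205* values lie above both *sim3-143* values, and all its spots were below the ceiling, with mutant intensities between 4670 and 8499. Its mean of 0.66 ± 0.22 in *sim3-205* (SD, n = 2) corresponds to 1.58-fold, with an adjusted p of 0.524 from limma.

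The lower large subunit genes of *sim3-205* were *rpl4-2* and *rpl8-3*. The L4 protein encoded by *rpl4-2* lines the exit tunnel of the nascent chain. It read -1.07 and -0.56 on the *sim3-205* arrays, and -0.08 and -0.25 on the *sim3-143* arrays, so that both *sim3-205* arrays lay below both *sim3-143* arrays. Its mean in *sim3-205* was -0.82 ± 0.36 (SD, n = 2), or 1.76-fold lower, and it had the smallest unadjusted p of all members in that allele (0.00684 from limma, adjusted p = 0.524). The probe named *rpl4* read -1.12 and -0.48 on the *sim3-205* arrays, and -0.01 and -0.46 on the *sim3-143* arrays, but only 2 of its 4 data points in *sim3-205* were past the cutoff. *rpl8-3*, one of 3 genes for a protein of the peptidyl transferase region, was low on all arrays. It read -0.59 and -0.66 on the *sim3-205* arrays, and -0.23 and -0.74 on the *sim3-143* arrays, where the alleles overlapped. The mean in *sim3-205* was -0.62 ± 0.05 (SD, n = 2), the closest agreement of replicates among the members past the cutoff (limma adjusted p = 0.524).

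**Figure D2:**
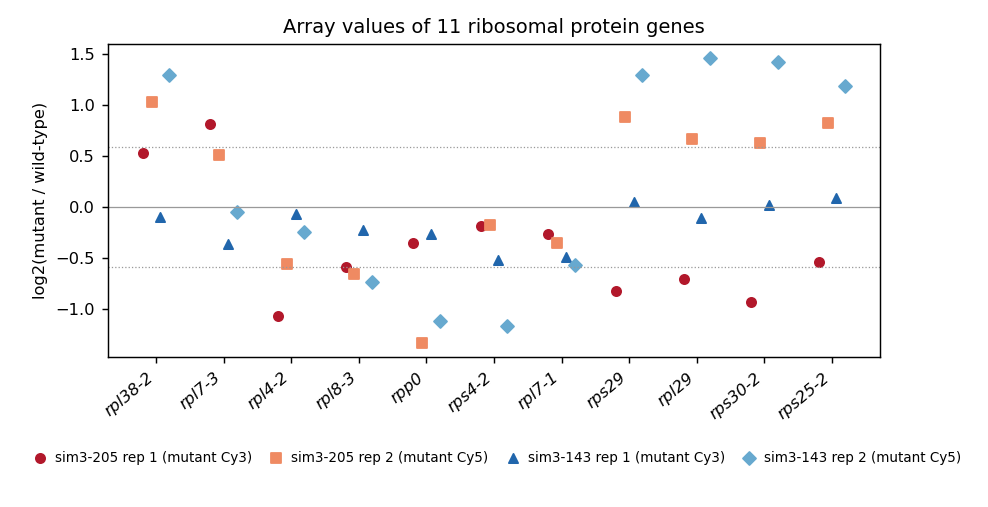
Log2 ratio of mutant over wild-type (vertical axis) for 11 ribosomal protein names (horizontal axis), 1 symbol for each array, with dotted lines at 1.5-fold. *rpl4-2*, *rpl8-3*, *rpp0*, *rps4-2* and *rpl7-1* lie below 0 on all 4 arrays, and *rps29*, *rpl29*, *rps30-2* and *rps25-2* are high on both arrays with the mutant in Cy5 and low on sim3-205 replicate 1.

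The lowest large subunit means of *sim3-143* belonged to *rpl7-1*, *rpl3-b* and *rpl5*. *rpl7-1* was the most even of these, with -0.49 and -0.57 on the *sim3-143* arrays, beside -0.27 and -0.35 on the *sim3-205* arrays, and its mean in *sim3-143* was -0.53 ± 0.06 (SD, n = 2; limma adjusted p = 0.534). *rpl5*, whose protein binds the small 5S rRNA, averaged -0.31 ± 0.26 in *sim3-205* and -0.49 ± 0.26 in *sim3-143* (SD, n = 2 each). *rpl3-b* rests on fewer readings. Its spots on *sim3-205* replicate 2 read 110 and 108 for the mutant and 100 and 100 for the wild-type, at the local background, and it was the only member dim in both dyes on any array. On the *sim3-143* arrays it read -0.02 and -0.98.

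The lowest kept large subunit reading of *sim3-205* was that of *rpl13a-1*, with -1.99 on replicate 1 and -0.07 on replicate 2, beside -0.08 and -0.55 on the *sim3-143* arrays. *rpl22* and *rpl35* were among the highest kept means of *sim3-205*, at 0.56 ± 0.17 and 0.54 ± 0.54 (SD, n = 2 each), and each had 2 of 4 data points past 1.5-fold and a mutant spot at the ceiling on *sim3-205* replicate 2. In *sim3-143* they averaged 0.29 and 0.32, and *rpl35* had spots at the ceiling on both arrays.

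The small subunit had no member past the cutoff in either allele once the grids of unrelated dyes were left out. *rps4-2* had the lowest mean of all members in *sim3-143*. It read -0.52 and -1.16 on the *sim3-143* arrays, beside -0.19 and -0.18 on the *sim3-205* arrays, and all *sim3-143* values lay below those of *sim3-205*. A wild-type spot of *rps4-2* was at the ceiling on *sim3-143* replicate 2, so that -1.16 is an upper bound. Its mean in *sim3-143* was -0.84 ± 0.46 (SD, n = 2), and its unadjusted p of 0.00845 was the smallest of a member in that allele (limma, adjusted p = 0.534). *rps6-2*, 1 of 2 genes for the S6 protein that is phosphorylated in response to nutrients, read -1.27 and -0.30 on the *sim3-205* arrays, and -0.14 and -0.51 on the *sim3-143* arrays. *rps16-2* read 0.89 and 0.24 on the *sim3-205* arrays, and -0.12 and 0.05 on the *sim3-143* arrays. Both exceeded 1.5-fold on 1 *sim3-205* array only.

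The highest members of *sim3-143* were *rps30-2*, *rpl29*, *rps29*, *rps25-2* and *rpl38-2*, and all of them were high on replicate 2 of that allele alone. *rps30-2*, for a very small basic protein, read 0.02 and 1.42 on the *sim3-143* arrays, beside -0.94 and 0.62 on the *sim3-205* arrays. *rps29*, which encodes a small zinc-binding protein, read 0.04 and 1.29 on the *sim3-143* arrays, beside -0.82 and 0.87 on the *sim3-205* arrays, the last with both mutant spots at the ceiling. *rpl29* read -0.11 and 1.45 on the *sim3-143* arrays, beside -0.71 and 0.67 on the *sim3-205* arrays. *rps25-2* read 0.09 and 1.18 on the *sim3-143* arrays, beside -0.54 and 0.82 on the *sim3-205* arrays. In each of these genes, unlike *rpl38-2*, the 2 arrays with the mutant in Cy5 were high, and *sim3-205* replicate 1, with the mutant in Cy3, was low. In *sim3-143* none of the 5 had 3 of 4 data points past the cutoff, and the means of *rps30-2*, *rpl29*, *rps29* and *rps25-2* lay between 0.64 and 0.72 with SDs between 0.77 and 1.11 (n = 2).

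Agreement between the arrays of an allele was weak over the members. Across the 121 kept names, the 2 *sim3-205* arrays correlated with Pearson's r = 0.03 and Spearman's rho = -0.02, against 0.17 and 0.13 over 4298 other genes. Across 130 names the 2 *sim3-143* arrays had 0.15 and 0.17, against 0.48 and 0.43 over 4711 other genes. These are correlations across genes that share a library, a scan and a brightness range, and they are given as a description. Members lay on the same side of 0 on both arrays in 51 of 121 cases in *sim3-205* (42.1%) and in 79 of 130 cases in *sim3-143* (60.8%), against 54.0% and 65.8% of the other genes. The dye orientation changes with the replicate in both alleles, so within an allele dye and replicate cannot be told apart. Expressed as Cy5 over Cy3, whichever strain was in which dye, the member median was 0.15 and 0.04 on the *sim3-205* arrays, and 0.01 and 0.08 on the *sim3-143* arrays, all above 0, while the median of all other genes was 0.01, 0.00, -0.00 and -0.01 on the same arrays. With a dye coefficient for each gene added to the fit, limma again called 0 members in *sim3-205*, in *sim3-143* and in the difference between them, and at an unadjusted p below 0.05 it gave 23, 13 and 8 of 130 members (17.7%, 10% and 6.15%), beside 12.8%, 14.3% and 9.93% of all genes.

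**Figure D3:**
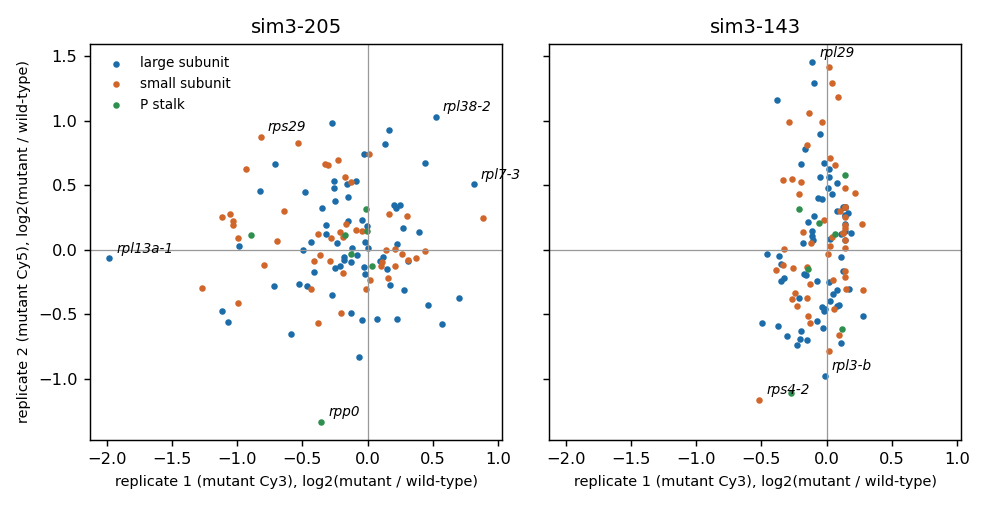
Replicate 1 (horizontal axis, mutant in Cy3) against replicate 2 (vertical axis, mutant in Cy5) of each allele, both as log2 ratio of mutant over wild-type, with 1 point for each ribosomal protein name and without the 10 readings of sim3-205 replicate 1. The points show no common slope in sim3-205 (Pearson 0.03), and in sim3-143 they form a column, narrow on replicate 1 (SD 0.18) and wide on replicate 2 (SD 0.53).

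Paralogous genes allow a comparison between copies within an array. The names form 47 families with more than 1 gene, 41 pairs and 6 triplets, with 100 genes in all. A family was taken from the current symbol or, where none was found, from the array name. That was so for the *rpl13a* pair, and the counts depend on this naming. Copies of a family can be so alike in sequence that each probe may read the transcripts of both, and how far they do so was not tested. The median gap between the highest and the lowest copy was 0.23 in *sim3-205* over 41 families with kept readings, and 0.21 in *sim3-143* over 46 families. On single arrays it was 0.42 and 0.16 on the *sim3-205* arrays, and 0.14 and 0.35 on the *sim3-143* arrays. The same copy of a pair was the higher one on both arrays in 17 of 36 pairs of *sim3-205* and in 24 of 40 pairs of *sim3-143*.

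With all readings, the widest gaps of *sim3-205* were those of *rps15* (3.55), *rps4* (3.10), *rps30* (2.31) and *rpl18* (2.23), each with a copy among the 10 doubtful readings. On *sim3-205* replicate 2, which is free of them, the copies of these families read -0.31 and -0.02 for *rps15-1* and *rps15-2*, and -0.08 and -0.38 for *rpl18-1* and *rpl18-2*. The gaps of the 4 families on that array ran from 0.18 (*rps30*) up to 0.36 (*rps4*). Among families with kept readings the *rpl7* triplet had the widest gap in *sim3-205*, 0.97, with *rpl7-3* at 0.66, *rpl7-2* at 0.02 and *rpl7-1* at -0.31. *rpl7-3*, which had no match in the current gene table, was placed in this family by its array name alone. *rpl7-3* was above *rpl7-1* on all 4 arrays. The *rps6* pair followed, with *rps6-2* 0.83 below *rps6-1*, and *rps6-2* was the lower copy on both *sim3-205* arrays. On both *sim3-143* arrays the wild-type spots of *rps6-1* were at the ceiling. The values of *rps6-1* there are upper bounds, and the order of the pair in *sim3-143* is not settled. In the *rpl13a* pair the gap of 0.78 came from replicate 1, and in the *rpl36* pair (0.66) *rpl36-2* was below *rpl36-1* on both *sim3-205* arrays. Their order in *sim3-143* is not settled, because *rpl36-1* was at the ceiling in 1 dye on both arrays.

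In *sim3-143* the families with the widest gaps were *rpl3* (0.74), *rps30* (0.56), *rpl9* (0.53) and *rps4* (0.51). The *rpl3* and *rpl9* gaps are set against a ceiling, because *rpl3-1* and *rpl9-2* had both dyes near saturation on both *sim3-143* arrays, and their value of 0.24 is that of the curve. The *rps30* gap was 0.22 and 0.89 on replicates 1 and 2, with *rps30-2* the higher copy. In the *rps4* triplet *rps4-2* read -0.52 and -1.16 and *rps4-3* read -0.13 and -0.57. *rps4-3* had 1 spot at the ceiling in both dyes on replicate 1, and *rps4-1*, at -0.22 and -0.44, had all its wild-type spots there at the ceiling, so that its values are upper bounds and its place in the order is not known.

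**Figure D4:**
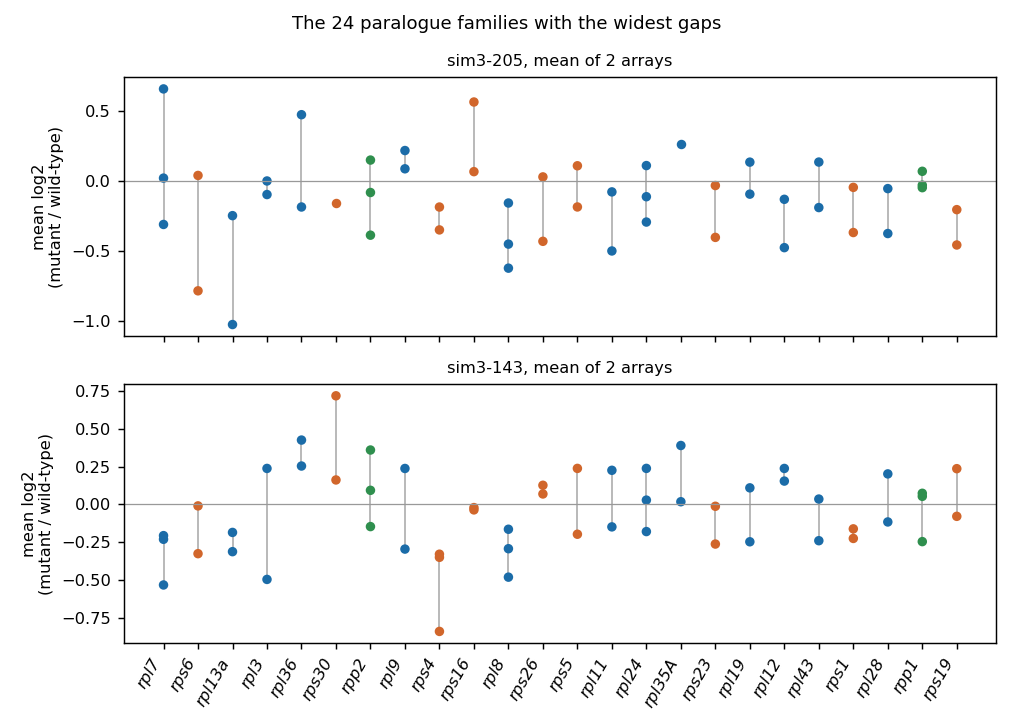
Mean log2 ratio of mutant over wild-type (vertical axis, mean of the 2 arrays) for the copies of the 24 paralogue families with the widest gaps (horizontal axis), with a grey line joining the copies, sim3-205 above and sim3-143 below. Doubtful readings are left out. The names grouped as *rpl7* are the farthest apart in sim3-205 (0.97) and those of *rpl3* in sim3-143 (0.74). *rpl7-3* is grouped by its array name alone.

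The alleles were set against each other in the same limma fit. For the difference of *sim3-205* minus *sim3-143*, limma called 0 of 130 members, and 0% of all 4834 genes, at an adjusted p below 0.05, and the smallest adjusted p of any gene was 0.704. At an unadjusted p below 0.05 there were 2 members (1 higher, 1 lower), against 5.05% of all genes, and without the 10 readings 5 of 120 members, against 6.11%. Both *sim3-205* arrays lay above both *sim3-143* arrays for 20 of 130 members (15.4%) and below them for 18 (13.8%), where 19.3% and 20.2% of all genes did so. The member with the smallest p was *rpl7-3*, with a difference of 0.87 and a standard error of 0.25 (unadjusted p = 0.0161, adjusted p = 0.704, limma). The other was *rpl11-1*, named after its values were seen, with -0.72 and -0.28 on the *sim3-205* arrays, and 0.17 and 0.29 on the *sim3-143* arrays. Its difference was -0.73 with a standard error of 0.25 (unadjusted p = 0.0316, adjusted p = 0.704, limma). For *rpp0* the difference was -0.15 with a standard error of 0.45, so that differences of either sign remain within the error.

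Spot brightness in the wild-type channel gives the order of signal on 1 array, and it depends on the printed product and its labelling as well as on the transcript. Among the brightest names by mean log2 intensity were *rpl12-2*, *rpl10-2* and *rpl19-2*. They have no order among themselves because they lie at the ceiling on part of the arrays. In all, 6 members reached the ceiling in 1 dye on all 4 arrays. By subunit, the median member was at percentile 98.2 in the large subunit (62 of 71 at or above the 90th), 98.3 in the small subunit (49 of 53) and 97.6 in the stalk (6 of 7).

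The few dim names were chosen after their values were seen. *rpp1-2* was the only member that averaged below the 50th percentile, at 27.0, whereas *rpp1-1* and *rpp1-3* averaged 97.6 and 97.5. Its percentile was 25.5 and 40.2 on the *sim3-205* arrays, and 1.59 and 40.5 on the *sim3-143* arrays. *rpl1-2* and *rpl32-1* averaged 53.6 and 64.2, and *rps3*, the dimmest small subunit name, averaged 72.5. *rpl3-b* averaged 71.8, but only through its spots at background on *sim3-205* replicate 2, since its percentile lay between 95.5 and 95.7 on the remaining arrays.

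**Figure D5:**
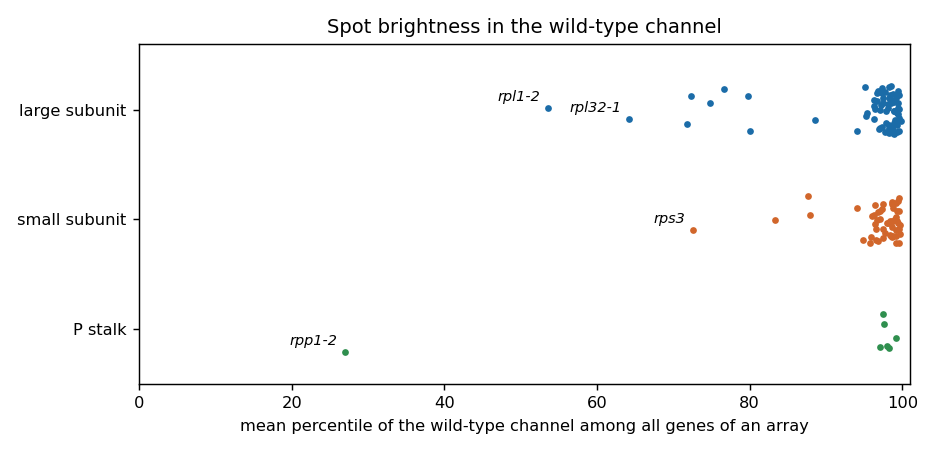
Percentile of the wild-type channel among all genes of an array (horizontal axis, mean over the 4 arrays, with the readings in grids of unrelated dyes left out), 1 point for each ribosomal protein name, by subunit (rows). Of the 131 names 117 lie at or above the 90th percentile, and *rpp1-2* lies at 27.0.

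The 53 mitochondrial ribosomal protein genes, which serve the separate ribosome of the mitochondrion, were dimmer. Their median percentile in the wild-type channel was 64.7 and 59.6 on the *sim3-205* arrays, and 60.4 and 53.6 on the *sim3-143* arrays. Their median log2 ratio was -0.02 in *sim3-205* and 0.11 in *sim3-143*, beside -0.01 and 0.03 for the cytosolic genes. In *sim3-205* 1 of 53 was past the cutoff as higher (1.89%), beside 2.59% of all genes. This member was SPBC16G5.04 (*mrpl23*), with 1.44 and 0.80 on the *sim3-205* arrays, and 0.07 and 0.37 on the *sim3-143* arrays (limma adjusted p = 0.449 in *sim3-205*). In *sim3-143* 0 of 53 were past it, beside 3.49% of all genes. The study's 1.5-fold list for *sim3-205* holds SPBC16G5.04 and also SPCC18B5.04 as higher. Here SPCC18B5.04 read 0.48 and 0.48 on the *sim3-205* arrays and was not past the cutoff.

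Genes that act with the ribosome stood beside the ribosomal proteins in small numbers. Of all genes, 2.59% were past the cutoff as higher and 0.618% as lower in *sim3-205*, and 2.11% and 1.38% in *sim3-143*. Of 5 probes for translation elongation factors, 0 were past the cutoff in either allele, with medians of 0.14 in *sim3-205* and -0.40 in *sim3-143*. The probes SPCC417.08 and *tef3* match the same gene. SPCC417.08 has a doubtful reading of 5.18 on *sim3-205* replicate 1. The *tef3* probe read 0.86 and -0.59 on the *sim3-205* arrays, on opposite sides of 0, and its mean is the median of 0.14. Of 8 ribosome-associated genes, which include fusions of ubiquitin to ribosomal proteins and the nascent polypeptide-associated complex, 1 was past the cutoff as lower in each allele. In *sim3-205* this was SPBC30D10.01 (*zuo1*), a J protein that works with Hsp70 at the tunnel exit. It read -0.66 and -0.65 on the *sim3-205* arrays, and -0.29 and -0.54 on the *sim3-143* arrays. In *sim3-143* it was SPAC6B12.15 (*cpc2*), the RACK1 homologue on the small subunit, with -0.56 and -0.63 on the *sim3-143* arrays, beside -0.01 and 0.11 on the *sim3-205* arrays. limma called neither (adjusted p = 0.524 for *zuo1* in *sim3-205* and 0.534 for *cpc2* in *sim3-143*). The study's 1.5-fold list for *sim3-205* also holds SPBC30D10.01 as lower.

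Of 10 probes for regulators of ribosomal protein genes and S6 kinases, 0 were past the cutoff in *sim3-205*, beside 3.21% of all genes. In *sim3-143* 1 was past it as lower, beside 1.38% of all genes. This 1 was SPAC16.05c (*sfp1*), a transcription factor whose budding yeast namesake activates ribosomal protein genes. It read -1.06 and -1.06 on the *sim3-143* arrays, with all 4 data points past 1.5-fold, and 0.61 and -0.51 on the *sim3-205* arrays, where the replicates lay on opposite sides of 0. limma's adjusted p for it in *sim3-143* was 0.534. The study's 1.5-fold lists instead hold SPAC16.05c as lower in *sim3-205* and *tor2* as higher in *sim3-143*. Names in these lists may stand for other spots than here. On *sim3-143* replicate 2 the deposited ratios had r = -0.002 and 0.01 with the ratios here as placed, and 0.77 and 0.76 moved back. Here *tor2*, 1 of the 10 probes, read 0.28 and -0.67 on the *sim3-143* arrays. The source of the difference was not tested. None of the 4 ribosomal protein-like and chaperone assembly factors was past the cutoff in either allele, with medians of -0.12 in *sim3-205* and -0.19 in *sim3-143*.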

How the data were processed

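RNA of *sim3-205* or *sim3-143* cells and of wild-type cells was compared on 4 two-colour ORF arrays, 2 per allele with swapped dyes. The authors deposited median spot and background intensity values for each dye, without normalization, and log2 ratios normalized by Lowess in GeneSpring. In the tables of deposited log2 ratios used here at most 2 members had a value on both arrays of an allele, so these ratios entered no result.

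Gene names came from the spot positions of *sim3-143* replicate 1, because the written names of *sim3-143* replicate 2 and *sim3-205* replicate 1 do not follow the printed order. Within grids of related dyes the Cy5 intensities then had Spearman correlations of 0.538 to 0.982 with that array, and the Cy3 intensities 0.499 to 0.933. Spots with image codes 1 or 4 were left out. In R 4.3.3 with limma 3.58.1, background was corrected by normexp (offset 50), a loess curve (span 0.3) was removed from every spot file, and ratios were turned to mutant over wild-type. Duplicate spots were averaged, and a single lmFit and eBayes model with 1 coefficient for each allele covered the 4 arrays, with Benjamini-Hochberg adjustment over 4834 genes. The scripts were tested on simulated intensities. Figures were drawn with matplotlib 3.10.9 under Python.

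The members, the gene lists and the rules were chosen with earlier results of these data known. The genes named are members past 1.5-fold, the 5 highest and 5 lowest of each allele, the stalk genes, the 4 families with the widest gaps in each allele, the brightest members and listed genes past 1.5-fold. The rules on highest, lowest and widest were applied again without the 10 doubtful readings. The alternatives were other background corrections and normalizations, filters on dim, near-saturated and doubtful spots, other cutoffs, a dye coefficient, separate fits of the alleles and each array left out. Some results under these rules are not reported here. No sequences are shown. Precision is limited by the number of arrays.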

Additional observations from a re-analysis of the deposited data

Results flagged for a closer look

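Both *sim3-205* arrays lay on one side of 0 and both *sim3-143* arrays on the other, as log2 ratios of mutant over wild-type, for 10 of 130 members (7.69%), beside 12.3% of all genes. Only the 5 of them that the naming rules had picked on other grounds are given here, and *rpl11-1*, described above, is among the rest. None of these 5 differences was called by limma (adjusted p between 0.704 and 0.783). The difference of *sim3-205* minus *sim3-143* was 0.87 for *rpl7-3* and 0.51 for *rpl9-1*, and it was 2.22 for *rpl34-2*, which lies in a grid of unrelated dyes on *sim3-205* replicate 1. Of *rpl9-1* both mutant spots on *sim3-205* replicate 2 were at the ceiling. The difference was -0.37 for *rpl12-2* and -0.23 for *rpl10-2*. Both dyes of these last genes were near saturation on both spots of *sim3-143* replicate 1, and their values there are those of the normalization curve. For *rpl12-2* this was so on *sim3-143* replicate 2 as well, so that its difference was not measured.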

How the results depend on the processing

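For *sim3-205* the 8 members past 1.5-fold became 4 with print-tip loess (3.05%, all genes 2.02%), 5 without the grids of unrelated dyes and 5 without these and the spots with a background of 0, the last added after seeing the data (4.1% and 4.13%, all genes 2.38% in each), 2 with all 4 data points required (1.53%, all genes 1.57%), 18 with the mean of the 4 points (13.7%, all genes 9.56%) and 0 at 2-fold (all genes 0.638%). For *sim3-143* the count of 0 became 1 with print-tip loess, 2 with median centring and 7 with the mean of the 4 points (0.769%, 1.54% and 5.38%, all genes 2.85%, 3.64% and 8.33%). On single arrays, where both spots must agree, the counts were 16 to 29 in *sim3-205* (16 without replicate 1 and 29 without replicate 2, 12.2% and 22.1%, all genes 7.36% and 12.7%) and 0 to 25 in *sim3-143* (25 without replicate 1 and 0 without replicate 2, 19.2% and 0%, all genes 16.5% and 4.4%). limma, with a lone array taken to vary like the others, called 0 members in every other setting run, and without *sim3-205* replicate 2 it called 16 members in *sim3-205*, 9 of them among the 10 doubtful readings, and 13 in the difference between alleles, so that these counts ran between 0 and 16 and between 0 and 13. The same fits called 6.92% and 6.26% of all genes. With those readings left out as well, it called 1 and 0 members and 29 and 22 genes. The member medians moved to -0.18 in *sim3-205* and -0.0600 in *sim3-143* with median centring, and over single arrays they ran between -0.12 and 0.04 in *sim3-205* and between -0.01 and 0.08 in *sim3-143*. Large minus small in *sim3-143* was -0.048 with print-tip loess, -0.083 with members kept out of the loess curve, -0.14 without near-saturated spots and between -0.036 and -0.024 on single arrays, and in *sim3-205* it ran between -0.08 and 0.12 on single arrays. The cause of these shifts was not tested. Among the background, normalization and spot filter settings, of the 5 kept members past the cutoff in *sim3-205* *rpp0* and *rpl8-3* failed it only with print-tip loess, *rpl7-3* with print-tip loess and median centring, *rpl4-2* with print-tip loess and members kept out of the curve, and *rpl38-2* with members kept out of the curve. Without near-saturated spots *rpl38-2* had too few data points for a call. The deposited ratios, moved back or as placed, were not run, because at most 2 members had a value on both arrays of an allele. No paired analysis was possible because the labels give no replicate numbers. The dye coefficient, however, splits the arrays as the numbers used here do.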
